A study of Mus musculus with 6 samples.

Results

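A set of 8 genes of synaptic vesicle release was followed in murine brainstem gliomas with and without the histone mutation H3.3K27M. The genes are Syt2, Syt7, Cplx1, Cplx2, Rab3a, Rab3c, Sv2a and Dnajc6, which act in vesicle docking, fusion and recycling. They were chosen by name from the 223 genes of the authors' deposited table, which lists genes with an adjusted p under 0.05 between the tumour groups. The 8 genes are therefore selected on the same contrast that is described here, and their differences between groups are given as descriptions with no test. RNA had been sequenced from 6 tumours, of which 3 carried H3.3K27M and 3 did not.

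Both groups came from C57BL/6 mice labelled Nestin tv-a and p53 floxed, and both combined PDGF-B with loss of p53. Nestin tv-a mice carry the receptor for an avian retrovirus under the nestin promoter, so that such viruses can deliver genes to neural progenitor cells, and PDGF-B is a growth factor that drives glioma formation. H3.3K27M is the lysine-to-methionine change at position 27 of the histone variant H3.3 that is known from human diffuse midline glioma. The tumours without it carry H3.3WT in their titles, and whether that marks an introduced gene is not stated. The ages of the animals are not given in the labels. The titles of the mutant tumours begin with 12 and those of the others with 11, and whatever these numbers mark cannot be told apart from the mutation. A second number in the titles, whose meaning the labels do not give, is 623 for mutant replicates 1 and 2 and 703 for mutant replicate 3. Values are DESeq normalized counts, that is reads per gene divided by a size factor of the library, and how deeply each library was sequenced in all is not known. The reads that the values imply over the 8 genes summed to between 3623 and 12572 per library.

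A synaptic vesicle is filled with transmitter, docks at the active zone, is primed by SNARE proteins, fuses when calcium enters, and is then retrieved by clathrin-coated membrane. Synaptotagmins sense the calcium, complexins hold the primed SNARE complexes ready for it, and Rab3 proteins bring vesicles to the release site. Neurons are the main cells of the brain that express this machinery, although glial and endocrine cells use some of the same proteins for regulated secretion.

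All 8 genes had more normalized counts in the H3.3K27M tumours on the authors' scaling, from 1.62-fold for Rab3a to 9.92-fold for Syt2, and 5 of the 8 differed by at least 2-fold. When the values were rescaled so that the listed genes outside the set had the same geometric mean in each tumour, which shifts the groups by 1.27 on the log2 scale, Cplx2, Sv2a, Rab3a and Syt7 turned lower, with log2 ratios of -0.33, -0.51, -0.58 and -0.15. As 81.6% of the listed genes were higher, this rescaling moves ratios down by its construction. Any listed gene with a log2 ratio well under that shift turns lower by it, and how many other listed genes do so was not counted. Syt2, Dnajc6, Cplx1 and Rab3c stayed higher under it, with log2 ratios of 2.00, 1.64, 0.87 and 0.38. Among 16365 gene tests the table called 1.36% in either direction and 1.11% as higher, and since the choice of the 8 genes used these calls, nothing is read from the count. In all 8 genes the lowest H3.3K27M tumour lay above the highest tumour without it, and the groups likewise lay apart for 99.6% of all listed genes. The median log2 ratio of the 8 genes was 1.40, beside 1.31 over all 223 listed genes and 1.58 over the 174 other listed genes that were higher.

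**Figure D1:**
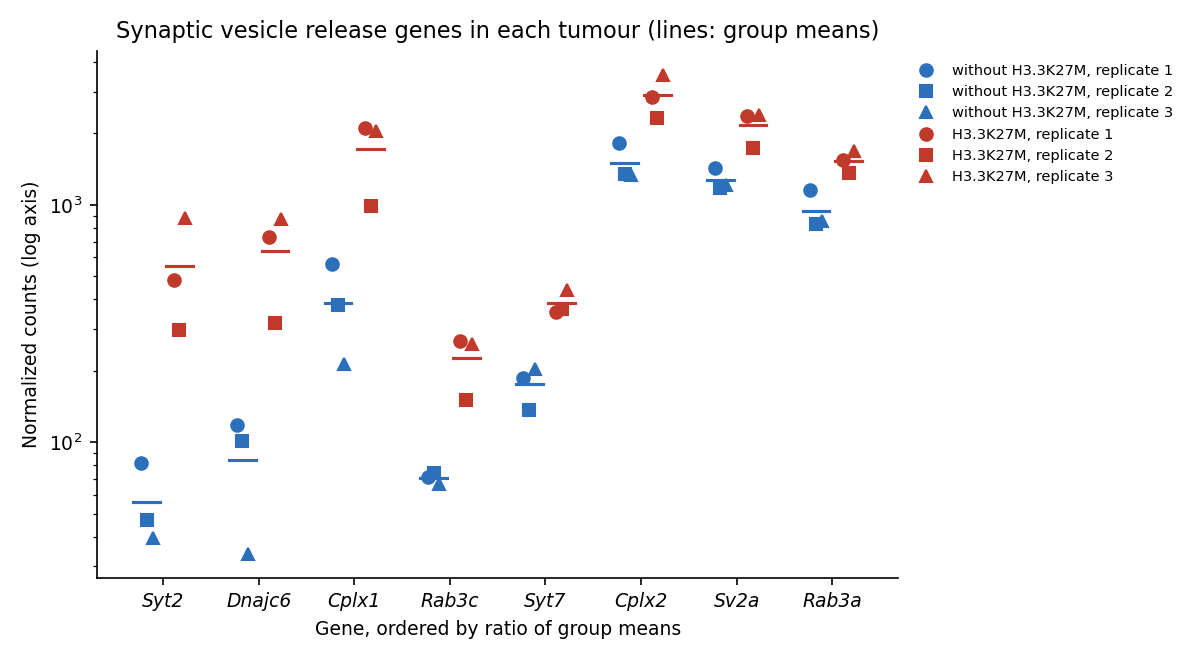
Normalized counts of the 8 genes in each of the 6 tumours on a log axis, with points for tumours and a bar for the mean of each group of 3. Every H3.3K27M tumour lies above every tumour without it for each gene on the authors' scaling. Under rescaling to the other listed genes, which moves ratios down by its construction, Cplx2, Sv2a, Rab3a and Syt7 turn lower.

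Promoter sequence was not used to choose the genes. The RefSeq promoter table (build GRCm38.p6; 250 bases before to 50 after each start) held 10 promoters of 7 of the genes, all but Syt7. The following 4 are shown because they hold the core of the cyclic AMP response element, TGACG, a sequence that CREB and related factors bind. In each, read 5′ to 3′ on the gene's own strand, capitals mark TGACG and the GC box GGGCGG, which Sp and Klf factors bind, or their reverse complements CGTCA and CCGCCC.
Syt2, chr1:134646362-134646661, plus strand: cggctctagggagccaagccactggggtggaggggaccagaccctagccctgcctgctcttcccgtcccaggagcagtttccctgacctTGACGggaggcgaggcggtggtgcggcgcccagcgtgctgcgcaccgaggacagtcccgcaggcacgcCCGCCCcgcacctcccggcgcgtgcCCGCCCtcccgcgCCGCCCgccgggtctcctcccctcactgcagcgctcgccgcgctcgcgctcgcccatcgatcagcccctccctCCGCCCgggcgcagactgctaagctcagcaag
Dnajc6, chr4:101550344-101550643, plus strand: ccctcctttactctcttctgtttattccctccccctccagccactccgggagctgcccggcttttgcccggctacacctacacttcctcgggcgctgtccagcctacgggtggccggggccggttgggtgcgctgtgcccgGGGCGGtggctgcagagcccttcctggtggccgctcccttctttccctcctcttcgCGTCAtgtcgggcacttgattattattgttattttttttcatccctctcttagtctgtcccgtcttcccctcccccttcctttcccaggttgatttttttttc
Cplx1, chr5:108549978-108550277, minus strand: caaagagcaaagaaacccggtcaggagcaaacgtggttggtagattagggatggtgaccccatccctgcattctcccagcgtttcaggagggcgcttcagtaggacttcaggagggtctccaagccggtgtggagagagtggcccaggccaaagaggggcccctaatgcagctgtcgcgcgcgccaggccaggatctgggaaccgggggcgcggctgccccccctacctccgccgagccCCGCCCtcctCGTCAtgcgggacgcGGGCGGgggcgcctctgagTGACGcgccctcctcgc
Rab3a, chr8:70754453-70754752, plus strand: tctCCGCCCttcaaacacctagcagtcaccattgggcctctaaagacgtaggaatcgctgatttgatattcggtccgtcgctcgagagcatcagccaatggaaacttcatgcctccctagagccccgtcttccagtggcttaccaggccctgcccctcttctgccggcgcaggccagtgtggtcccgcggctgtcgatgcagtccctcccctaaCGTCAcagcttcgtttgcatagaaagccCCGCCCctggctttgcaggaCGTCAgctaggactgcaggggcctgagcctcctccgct
Both strands were searched, and TGACG lies within the longer motif TGACGTCA that was also searched. TGACG was found for 4 of the 7 genes, beside 23.0% of the 27025 genes in the table and 33.1% of the 118 other higher listed genes with a promoter there. GGGCGG was found for 6 of the 7, Cplx2 being without it, beside 38.2% of all genes and 60.2% of the other higher listed genes. Syt2, Dnajc6 and Rab3a have 2 promoters each, which gives more chances of a match, and their promoters not shown held no TGACG. Counted by promoter, TGACG was in 4 of the 10 and in 20.8% of all promoters. GGGCGG was in 7 of the 10 and in 35.7% of all promoters. The full cyclic AMP response element TGACGTCA was in none of the 7 and in 2.03% of all genes. The TATA box TATAAA was also in none of the 7, and 15.7% of all genes held it. Of the 2 parts of the neuron-restrictive silencer element, through which REST holds neuronal genes down in other cells, TTCAGCACC was in none of the 7 and in 0.433% of all genes. The other part, GGACAG, was in the promoters of Dnajc6 and Syt2 and in 24.7% of all genes. The median GC content of the 10 promoters was 62.7%, with a range from 48.3% to 74.3%, beside 52.7% over all 32851 promoters. GC-rich motifs are met more often in GC-rich promoters, and no match says only that the letters are not in this window.

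The calcium sensors of the set were Syt2 and Syt7. Syt2 (ENSMUSG00000026452, chromosome 1) encodes synaptotagmin 2, the fast calcium sensor that triggers synchronous release in caudal brain regions such as the brainstem. With tumours given here and in what follows as replicates 1, 2 and 3 of their group, its normalized counts with the mutation were 484, 296 and 883. Without the mutation they were 81.5, 46.8 and 39.3. The lowest mutant tumour, replicate 2, was 3.64-fold above the highest of the others. The means were 554.3 ± 299.5 and 55.9 ± 22.5 (SD, n = 3 each), a 9.92-fold difference with an adjusted p of 0.0295 in the authors' deposited table, the highest adjusted p of the 8 genes. Leaving out H3.3K27M replicate 3 lowered the ratio to 6.98, and leaving out replicate 1 of the others raised it to 12.9.

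Syt7 (ENSMUSG00000024743, chromosome 19) encodes synaptotagmin 7, a slow calcium sensor of high affinity with roles in asynchronous release, facilitation and vesicle replenishment. Its normalized counts were 353, 365 and 438 in the mutant tumours and 186, 137 and 204 in the others. The mutant tumours were close together, and replicate 2, which was lowest for each of the other 7 genes, was in the middle here. Its distance from replicate 1 was within counting error. The means were 385 ± 46.0 and 176 ± 34.9 (SD, n = 3 each), a 2.19-fold difference with an adjusted p of 0.00199 in the authors' deposited table. Of the Syt7 exon bases, 5.13% overlap the predicted gene Gm26859 on the opposite strand, and whether the counting used strand is not given in the sources used here.

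The complexins bind assembled SNARE complexes and control when they complete fusion, Cplx1 and Cplx2 being the main forms of the brain. Cplx1 (ENSMUSG00000033615, chromosome 5) had 2109, 985 and 2054 normalized counts in the mutant tumours and 566, 379 and 213 in the others. Replicate 2 was again the lowest mutant tumour, 1.74-fold above the highest of the others. The means were 1716 ± 633 and 386 ± 177 (SD, n = 3 each), a 4.45-fold difference with an adjusted p of 0.0127 in the authors' deposited table.

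Cplx2 (ENSMUSG00000025867, chromosome 13) differed less between the groups. It had 2849.9, 2329 and 3531 normalized counts in the mutant tumours and 1813, 1343 and 1335 in the others. The highest tumour without the mutation came within a factor of 1.28 of the lowest mutant tumour. The means were 2903 ± 603 and 1497 ± 274 (SD, n = 3 each), a 1.94-fold difference with an adjusted p of 0.0187 in the authors' deposited table. The log2 ratio of Cplx2 was -0.33 on the rescaled values, where that of Cplx1 was 0.87.

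Rab3 proteins are small GTPases on the vesicle surface that bind active zone proteins, and Rab3a is their most abundant form in brain. Rab3a (ENSMUSG00000031840, chromosome 8) had 1548, 1355 and 1682 normalized counts in the mutant tumours and 1150.2, 832 and 853 in the others. The groups were separated by a factor of 1.18, the narrowest gap of the 8 genes. The means were 1528 ± 164 and 945 ± 178 (SD, n = 3 each), a 1.62-fold difference with an adjusted p of 0.00742 in the authors' deposited table. Of the Rab3a exon bases, 1.30% overlap Mpv17l2 on the opposite strand. Rab3c (ENSMUSG00000021700, chromosome 13) is a closely related vesicle GTPase found at lower level. Its normalized counts were 267, 149.8 and 260.2 in the mutant tumours and 71.45, 74.2 and 66.5 in the others. The tumours without the mutation lay nearly on 1 value, with a coefficient of variation of 5.47%. Counting error alone gives 12.0% there, so this closeness does not show that the tumours vary little. Mutant replicate 2 lay well under the other mutant tumours. The means were 226 ± 65.8 and 70.7 ± 3.87 (SD, n = 3 each), a 3.19-fold difference with an adjusted p of 0.00309 in the authors' deposited table.

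Sv2a (ENSMUSG00000038486, chromosome 3) encodes a glycoprotein of the vesicle membrane that binds the antiepileptic drug levetiracetam. It had 2371, 1731 and 2394 normalized counts in the mutant tumours and 1424, 1174 and 1207 in the others. Replicate 2 stood below the other mutant tumours and 1.22-fold above the highest tumour without the mutation. The means were 2165 ± 376 and 1268 ± 136 (SD, n = 3 each), a 1.71-fold difference with an adjusted p of 0.0114 in the authors' deposited table.

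Dnajc6 (ENSMUSG00000028528, chromosome 4) encodes auxilin, the neuronal cofactor with which Hsc70 strips clathrin from retrieved vesicles. It had 729, 318 and 875 normalized counts in the mutant tumours and 118, 101 and 33.8 in the others. Each group had 1 low tumour, replicate 2 among the mutant tumours and replicate 3 among the others. The means were 641 ± 289 and 84.3 ± 44.5 (SD, n = 3 each), a 7.60-fold difference with an adjusted p of 0.0114 in the authors' deposited table. The value of 33.8 in replicate 3 without the mutation rests on 31 reads, the fewest behind any value of the 8 genes, for which counting alone gives a coefficient of variation of 18.0%.

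Levels can be compared between genes only per exon length, here normalized counts per kilobase of annotated exon. In the tumours without the mutation the order of these levels was Rab3a at 425 ± 79.9, Cplx2 at 304 ± 55.6, Sv2a at 274 ± 29.3 and Cplx1 at 176 ± 80.7, followed at a distance by Syt7 at 23.5 ± 4.66, Dnajc6 at 14.3 ± 7.53, Syt2 at 7.32 ± 2.95 and Rab3c at 5.87 ± 0.321 (SD, n = 3). Neighbours in this order differed by less than their summed SDs, except Cplx1 and Syt7. In the H3.3K27M tumours Cplx1 came first at 784 ± 289, before Rab3a at 687 ± 73.8, Cplx2 at 589 ± 122 and Sv2a at 467 ± 81.2, and these neighbours again differed by less than their summed SDs. Dnajc6 at 108 ± 48.9 and Syt2 at 72.6 ± 39.2 came before Syt7 at 51.4 ± 6.14 there, with neighbours again within their summed SDs, and Rab3c was last at 18.7 ± 5.46. The gene models are the union of all annotated exons, which may be longer than the transcripts in use.

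The proportions within each pair of related genes do not depend on how the libraries were scaled, and they differed between the groups. Cplx1 made up 42.5%, 29.7% and 36.8% of the normalized counts of Cplx1 plus Cplx2 in the mutant tumours, and 23.8%, 22.0% and 13.7% in the others. The means were 36.3 ± 6.41% and 19.8 ± 5.35% (SD, n = 3 each), or 56.0 ± 6.88% and 35.5 ± 7.97% per exon length. Per length Cplx1 was thus the larger of the pair in the mean of the mutant tumours and the smaller in that of the others. In mutant replicate 2 it was the smaller too, at 48.8% per length. Syt2 made up 57.8%, 44.8% and 66.9% of Syt2 plus Syt7 in the mutant tumours, and 30.5%, 25.5% and 16.1% in the others. The means were 56.5 ± 11.1% and 24.0 ± 7.27% (SD, n = 3 each). Rab3a made up 85.3%, 90.0% and 86.6% of Rab3a plus Rab3c in the mutant tumours, and 94.2%, 91.8% and 92.8% in the others. The means were 87.3 ± 2.45% and 92.9 ± 1.17% (SD, n = 3 each), so that Rab3a stayed the predominant form in every tumour. The groups did not overlap in any of the 3 pairs, and how often other pairs of listed genes lie apart was not counted. Because the shares come from the contrast that chose the genes, they are descriptions too.

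**Figure D2:**
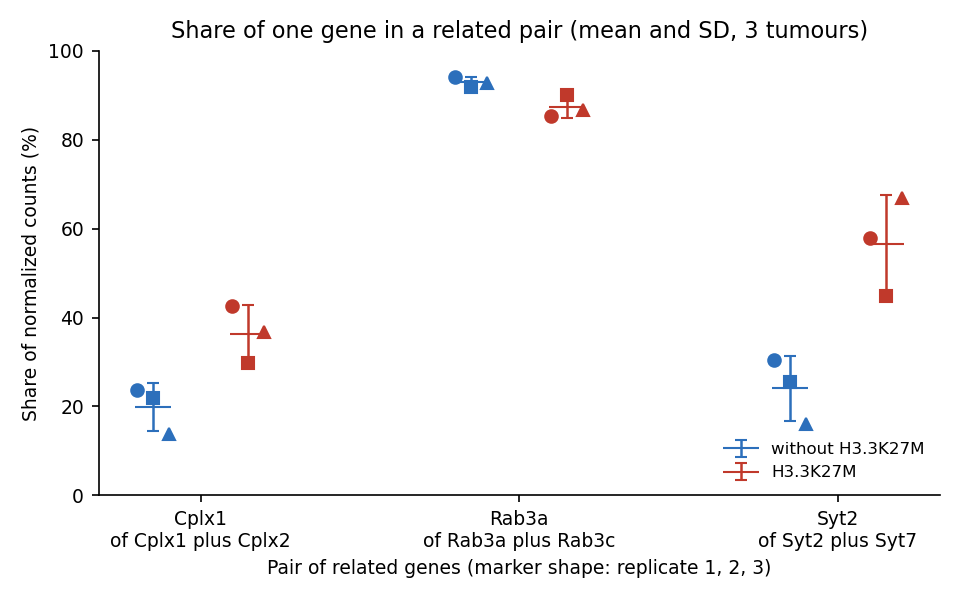
Share of Cplx1 in Cplx1 plus Cplx2, of Rab3a in Rab3a plus Rab3c and of Syt2 in Syt2 plus Syt7, in percent of normalized counts, with a point for each tumour and a bar with its error for the mean and SD of each group of 3. Cplx1 and Syt2 took larger shares in H3.3K27M tumours and Rab3a a smaller one, and the shares are the same under any scaling of the libraries.

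Within a group, the genes differed widely in how far the tumours lay apart, a measure that does not use the contrast. The coefficient of variation among the H3.3K27M tumours was 54.0% for Syt2, 45.1% for Dnajc6 and 36.9% for Cplx1, then 29.1% for Rab3c, 20.8% for Cplx2, 17.4% for Sv2a, 11.9% for Syt7 and 10.7% for Rab3a. Among the tumours without the mutation it was 52.8% for Dnajc6, 45.8% for Cplx1 and 40.3% for Syt2, and for the other 5 genes it lay between 5.47% (Rab3c) and 19.9% (Syt7). The same 3 genes were thus the most variable in both groups. The median over the 8 genes was 25.0% in mutant tumours and 19.3% in the others, beside 22.2% and 21.1% over the other listed genes. For comparison, counting error alone gives Syt2 a coefficient of variation of 4.18% in mutant tumours and 13.5% in the others. For Rab3c in the tumours without the mutation it gives 12.0%, more than the 5.47% found. Across the 8 genes the log2 ratio was larger where the spread among the mutant tumours was larger (Spearman's rho 0.929), as it did across the 173 other higher listed genes with a finite ratio (0.825). These are descriptions across genes that share the same 6 libraries, and a list chosen by p-value admits variable genes only with large ratios.

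**Figure D3:**
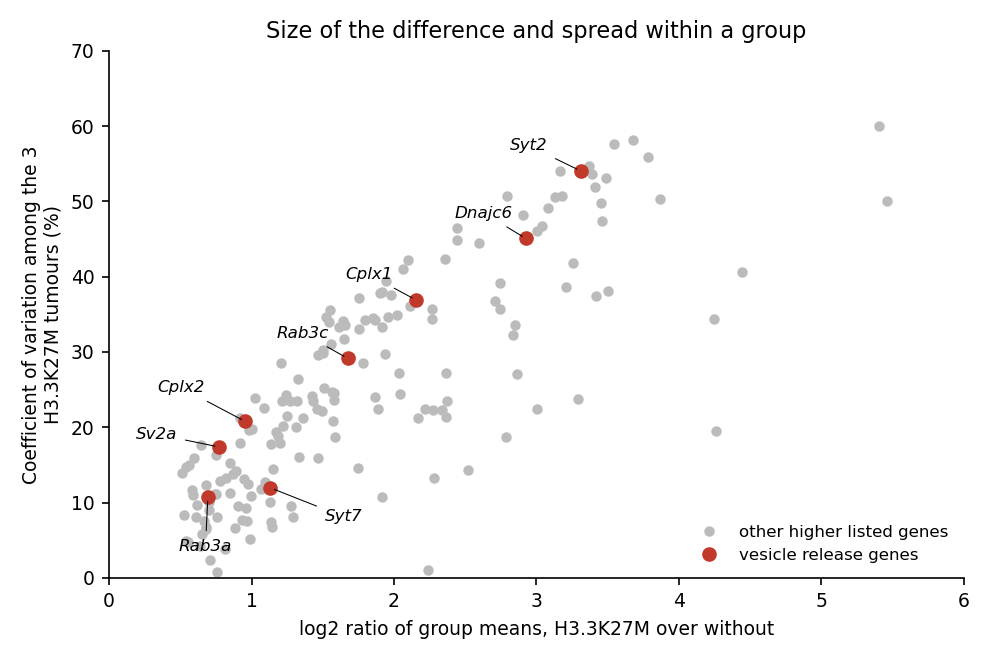
Coefficient of variation among the 3 H3.3K27M tumours against the log2 ratio of group means, for the 8 vesicle release genes (red) and 170 other listed genes that were higher (grey), with 4 others whose ratio is above 6 on the log2 scale or infinite not drawn. Syt2, Dnajc6 and Cplx1 lie at the upper right and Rab3a, Sv2a, Syt7 and Cplx2 at the lower left. The last 4 turn lower under rescaling to the other listed genes, which moves ratios down by its construction.

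The tumours kept much the same order from gene to gene. H3.3K27M replicate 2 was the lowest of its group for 7 of the 8 genes (87.5%), beside 115 of the 174 other higher listed genes (66.1%). H3.3K27M replicate 3 was the highest for 6 of the 8 (75%), beside 47.7% of those other genes. Among the tumours without the mutation, replicate 1 was the highest for 6 of the 8 (75%) and replicate 3 the lowest for 5 (62.5%), beside 40.8% and 43.7% of the other higher listed genes. Some lowest places in that group rest on gaps within counting error. Replicates 2 and 3 had 1343 and 1335 for Cplx2 (counting error 2.61%) and 832 and 853 for Rab3a (3.29%). On the rescaled values replicate 2 was the lowest mutant tumour for 5 of the 8, and replicate 3 the lowest of the others for 3. The other listed genes were not counted on that scale. On the authors' scaling Syt7 departed from this order in both groups, with replicate 1 lowest among the mutant tumours and replicate 3 highest among the others. Counting error alone gives Syt7 a coefficient of variation of 5.04% in mutant tumours and 7.65% in the others. Mutant replicates 1 and 2, at 353 and 365, lay closer than that, so their order is not firm.

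Neuron markers shared part of this order. Of 50 neuron markers, 11 were in the table, beside 1.36% of all genes tested. The marker lists were made with earlier results of these data known, so such shares are descriptions. All 11 were higher on the authors' scaling, as were 81.6% of all listed genes. Their summed normalized counts ran from 4176 to 8215 in H3.3K27M tumours and from 1521 to 2112 in the others. The log2 ratios of Ina and Elavl2, at 0.70 and 0.78, lie under the shift of 1.27 that the rescaling makes, and those of the other listed markers lie above it. Of these 11 genes, Cck was the only one with a value of 0 in any library, and the other markers have no values here. H3.3K27M replicate 2 was the lowest mutant tumour for 10 of the 11 listed markers, beside 66.1% of the 174 higher listed genes outside the 8. Replicate 3 was the lowest of the others for 10 of the 11, beside 43.7%. The highest mutant tumour was replicate 1 for 6 of the 11 markers and replicate 3 for 5, where replicate 3 was highest for 6 of the 8 genes. As deviations from the group's mean log2 value, the markers averaged 0.36, -0.72 and 0.36 in the mutant tumours, and the 8 genes averaged 0.12, -0.47 and 0.35. In the others the markers averaged 0.48, 0.40 and -0.88, and the 8 genes 0.35, -0.04 and -0.31. The correlation of a gene's deviations with the markers' mean ran from -0.32 for Syt7 to 0.99 for Dnajc6. The median log2 ratio of the markers between the groups was 2.91, above the 1.40 of the 8 genes. In bulk tumour RNA, fewer cells of a type and less RNA per cell cannot be told apart, and the part of neuron content in the differences of the 8 genes was not tested.

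**Figure D4:**
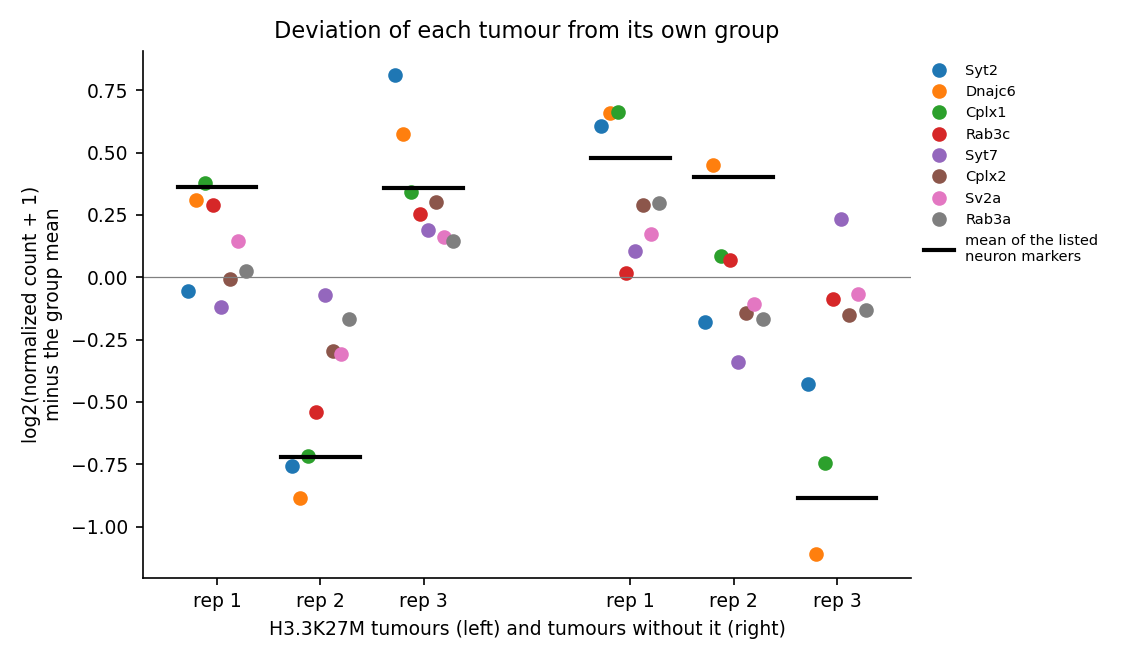
Deviation of log2(normalized count + 1) from the mean of its own group, for each of the 8 genes (coloured points) and for the mean of the 11 listed neuron markers (black bars), in each tumour. H3.3K27M replicate 2 lies below its group mean for all 8 genes and for the markers, while replicate 3 without the mutation is low for the markers, Dnajc6, Cplx1 and Syt2 and high for Syt7.

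Markers of other cells that such a tumour can hold were read in the same way, against the same 1.36% and with the same limit on the shares. Aqp4, Aldh1l1 and Slc4a4, 3 of 15 astrocyte markers, were higher in mutant tumours, with sums from 1883 to 3446 against 804 to 1021. Of 13 markers of oligodendrocyte precursors, a cell type that PDGF-driven gliomas resemble, Dll3 and Bcas1 were lower, with sums from 9227 to 12043 against 14923 to 16568. Lum, Dcn and Lox, 3 of 13 mural and fibroblast markers, were higher, with sums from 1116 to 1764 against 279.8 to 556. Of 14 myelin markers Ermn was higher, at 80.6 to 217 against 18.5 to 31.2. None of the microglia, endothelial or ependymal markers was in the table, so the label of the tissue could be checked on these few markers only, and the part of these cells in the results was not tested.

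Beyond the 8 genes, a list of the vesicle cycle was read in the table by role. Of its 114 genes 12 were listed (10.5%), all as higher on the authors' scaling, of which Cplx2, Sv2a, Rab3a and Syt7 turned lower on the rescaled values. Without the 8 chosen genes 4 of 106 (3.77%) were listed, beside 1.36% of all genes tested. This list was made with results of these data known, so the shares are descriptions. The 4 further genes belong to different steps. Cacna2d1, the calcium channel subunit that gabapentin binds, had 164, 109 and 169 normalized counts in the mutant tumours and 37.2, 21.5 and 32.7 in the others, a 4.84-fold difference with an adjusted p of 4.94e-05 in the authors' deposited table. Rims3, a short RIM protein of the active zone, was at 240.0 ± 71.5 against 62.6 ± 11.6 (SD, n = 3 each), 3.84-fold higher with an adjusted p of 0.00114 in the authors' deposited table. Slc32a1, which loads vesicles with GABA and glycine and is also on the neuron marker list, was at 355 ± 174 against 41.9 ± 18.4, 8.47-fold higher with an adjusted p of 0.0183 in the authors' deposited table. Sncb, the presynaptic protein beta-synuclein, was at 526.8 ± 199.6 against 141 ± 70.1, 3.73-fold higher with an adjusted p of 0.0439 in the authors' deposited table.

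By role, 2 of 11 calcium sensors, 2 of 4 complexins, 2 of 10 Rab proteins and effectors and 1 of 13 vesicle membrane proteins were listed. The table further held 1 of 19 priming and active zone genes, 1 of 12 loading genes, 1 of 7 presynaptic calcium channel genes and 2 of 26 genes of endocytosis and uncoating. Of the 12 listed genes 8 are the chosen ones, so the counts by role partly restate the choice. None of the 12 SNARE proteins and their chaperones was listed, among them Snap25, Stx1a and Vamp2, beside 1.36% of all genes tested. A gene that is not in the table either stayed at or above an adjusted p of 0.05 or was not tested, and its level is not known here.

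**Figure D5:**
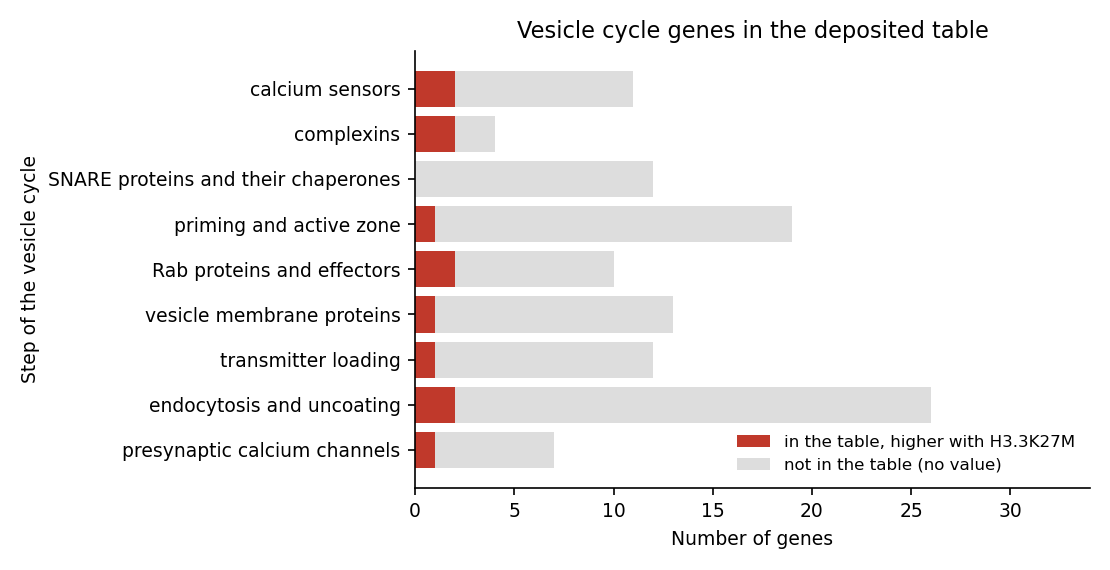
Genes of the vesicle cycle list by role, with the number in the deposited table set against the number on the list. Complexins show 2 of 4, both among the 8 chosen genes, and SNARE proteins and their chaperones none of 12, beside 1.36% of all genes tested. All 12 listed genes are higher on the authors' scaling. Of these, Cplx2, Sv2a, Rab3a and Syt7 turn lower under rescaling to the other listed genes, which moves ratios down by its construction.

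Other genes were ranked by how like their pattern within the groups was to the mean of the 8 genes, by the Euclidean distance between deviations from the group means of log2(normalized count + 1) over the 6 tumours. Over all other listed genes the median distance was 0.895. The nearest were Ckmt1, the mitochondrial creatine kinase, at 0.198 and Ndrg4, a cytosolic protein of the NDRG family, at 0.199. Ckmt1 had 653, 436 and 697 normalized counts in the mutant tumours and 309.95, 235 and 225 in the others. Ndrg4 had 4354, 2903 and 4499.8 in the mutant tumours and 2158, 1850.2 and 1516 in the others. In both genes mutant replicate 2 was low and replicate 1 was the highest of the others, as for most of the 8 genes. Next came Nrip3 at 0.250, Jakmip3 at 0.258, the Ras-family GTPase Diras1 at 0.263, and Slc4a4, the sodium bicarbonate cotransporter of astrocytes, at 0.285. Psd, an exchange factor for Arf6, followed at 0.299, the calmodulin-binding transcription activator Camta1 at 0.311, Tmtc1 at 0.364 and Foxf1a, a forkhead factor of mesenchyme, at 0.402. Of these 10 genes 9 were higher in the mutant tumours and Foxf1a was lower, at 38.3 ± 7.25 against 123 ± 15.0 (SD, n = 3 each). None of the 11 listed neuron markers was among the 10, and their median place was 108. This differed with the measure. Ranked by correlation of the same deviations, 5 of the 10 genes were shared, 1 neuron marker was among the 10 and the markers' median place was 37. Distance sets apart genes that vary more than the 8 do, and correlation does not.

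Reads could also be shared with other genes. Of the 50-base stretches of the exons of Syt7, 4.25% occur in transcripts of Gm26859. For Cplx2 2.12% and for Rab3c 0.587% occur in transcripts of other genes, including 63 stretches that Cplx2 and Rab3c have in common. For Syt2 the share was 0.0262%, and for Cplx1, Rab3a, Sv2a and Dnajc6 it was 0. How the authors' counting treated reads with several matches is not given in the sources used here.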

How the data were processed

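RNA of 6 snap-frozen tumours was sequenced on Illumina instruments, per the labels' protocols, and the 3 tumours of each group are called independent in the design text. DESeq, without a version, and the builds mm9 and NCBIM37 are named in the submitters' processing notes. The authors deposited a signal per gene and tumour, DESeq normalized counts, with the ratio (fold change) of the group means, the log2 of that ratio, and p-values before and after adjustment. With 16365 tests the Benjamini-Hochberg formula returned every adjusted p. All values were whole multiples of 1 step per library, from 0.943 to 1.09, within 0.01 of a whole number. Low values are too few in the table to show that 1 step is 1 read, so no count test was run, and read numbers rest on that reading. Summed over the table, each library had from 215758 to 277881 such reads.

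Means, SDs, shares and distances were computed in Python 3.11.15 with pandas 2.3.3 and numpy 2.4.6 and tested on simulated data. The pseudocount was 1 on the log2 scale, with no filter on low values. Exon lengths, strands and 50-base stretches came from GENCODE M21, whose build differs from the authors', so gene coordinates are not given. The 8 genes and all lists were chosen with earlier results of these data known. Besides the 8, genes were named where listed and on the vesicle cycle list, or among the 10 nearest in distance. Protein sequences were not analysed here. Columns of tumour values that match no sample numbered 0. Alternatives were other group summaries, a pseudocount of 10, rescaling, reads as counted, a filter at a mean of 50, and leaving out each tumour.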

Additional observations from a re-analysis of the deposited data

How the results depend on the processing

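Over the 8 genes and the 11 alternatives each that could change a ratio, 80 of 88 log2 ratios moved by less than the spread between replicates. Most of these were nearly fixed in advance, since leaving out 1 of 3 tumours can hardly shift a group mean by as much as that spread. The count is therefore no measure of how firm the ratios are. A filter at a mean of 50 removed none of the 8. The other 8 of the 88 ratios all came from rescaling to the listed genes outside the set. There Cplx2 turned to -0.33, Rab3a to -0.58, Sv2a to -0.51 and Syt7 to -0.15. The median over the 8 genes fell from 1.40 to 0.11, by the construction of that scaling. Under it, replicate 3 without the mutation was lowest for 3 rather than 5 of the genes, and mutant replicate 2 for 5 rather than 7. Leaving out 1 tumour kept the median log2 ratio between 1.29 and 1.53, and the share differences, in percentage points, between 13.4 and 19.8 for Cplx1, between -6.96 and -4.59 for Rab3a and between 27.3 and 38.3 for Syt2. By correlation in place of distance, 5 of the 10 most alike genes were shared, and the cause was not tested. With 1 mismatch allowed, 1 gene, Rab3a, matched the letters of the cyclic AMP response element, as did 12.5% of all promoters. No paired analysis was possible because the labels give the groups no shared replicate numbers. Depth limits the low values of Dnajc6 and Syt2 most.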

Other observations

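Several other genes, most of them of membrane traffic, were in the table, chosen here after their values were seen. Eps15, an adaptor of clathrin-mediated endocytosis, had 1074, 955 and 1103 normalized counts in replicates 1 to 3 with the mutation and 438, 626 and 363 in the others, a 2.20-fold difference with an adjusted p of 2.47e-06 in the authors' deposited table. The tumour that was lowest among the mutant ones for 7 of the 8 vesicle release genes, replicate 2, was the lowest here too, by a smaller margin. It was also the lowest mutant tumour for Ap1s2 and Snph below, while for Rab11fip4 and Sort1 below replicate 3 was the lowest. Rab6b and Fnbp1, looked at with these genes, were 1.47-fold and 1.51-fold higher, and replicate 1 was their lowest mutant tumour. Slc6a7, looked at with them too, was 19.2-fold higher with an adjusted p of 3.31e-09 in the authors' deposited table. Replicate 3 was its lowest mutant tumour, and its mean in the tumours without the mutation was only 5.58. Ap1s2, a subunit of the clathrin adaptor AP-1, was at 670.5 ± 51.2 against 352 ± 15.1 (SD, n = 3 each), 1.91-fold higher with an adjusted p of 0.00218 in the authors' deposited table. Rab11fip4, an effector of Rab11 in endosome recycling, was at 1335 ± 10.1 against 789 ± 87.5, 1.69-fold higher with an adjusted p of 0.00301 in the authors' deposited table. Sort1, the sorting receptor sortilin, was at 2165 ± 241 against 1290.01 ± 272, 1.68-fold higher with an adjusted p of 0.00474 in the authors' deposited table. Snph, which encodes syntaphilin, an anchor of axonal mitochondria, was at 708 ± 242 against 226 ± 47.6, 3.13-fold higher with an adjusted p of 0.0289 in the authors' deposited table. Among the 3 mutant tumours Rab11fip4 varied least of these genes and Snph most. All these ratios are on the authors' scaling. The log2 ratios of Eps15, Ap1s2, Rab11fip4 and Sort1, at 1.13, 0.93, 0.76 and 0.75, lie under the shift of 1.27 that the rescaling makes. Those of Rab6b and Fnbp1, at 0.56 and 0.60, do so too, and those of Snph, at 1.64, and Slc6a7, at 4.26, lie above it.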
